A study of Mus musculus with 16 samples.

Results

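The gene group described is a list of 36 genes for proteins of the lysosome, made up of soluble hydrolases, precursors of their cofactors and proteins of the lysosomal membrane. The members were taken by name from the 13733 genes in the bulk RNA-seq table of mouse knee joint cells, and all 36 were listed. None was at 0 reads in any of the 16 libraries, the lowest value was 92 reads (Sgsh), and all 36 passed the filter of at least 1 CPM in at least 4 libraries. CPM is a gene's read count divided by a library size that the authors scaled between libraries, times 1000000. The members were grouped by role into 6 cysteine cathepsins, 3 other peptidases, 9 glycosidases, 3 sulfatases, 6 lipid hydrolases and cholesterol exporters, 2 cofactor precursors and 7 membrane proteins.

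The libraries came from 4 groups of 4 mice. WT D0 and WT D7 were C57BL/6 mice, uninjured or 7 days after injury of the anterior cruciate ligament (ACL) by a single compressive overload of the tibia. Trem2-/- D0 and Trem2-/- D7 were the same states in C57BL/6 mice with a knockout of Trem2, a surface receptor of macrophages and osteoclasts, that is not limited to a cell type. Part of the labels and the paper give 10 weeks as the age at injury, while another label gives 16 weeks. The labels also speak of homogenized joints of control and diabetic mice, and the paper of cells released enzymatically from the joint, so that the exact input is uncertain. The cell preparation that the paper refers to includes magnetic separation of CD45+ leukocytes from other cells, and which fraction these libraries hold is not stated. Trem2 was 15.1, 22.5, 18.9 and 10.7 CPM in WT D7 mice and 4.13, 4.69, 3.42 and 4.84 CPM in Trem2-/- D7 mice, and the groups did not overlap. At D0 it was 2.51, 4.88, 5.26 and 5.61 CPM in WT and 1.88, 0.948, 2.68 and 1.70 CPM in Trem2-/- mice, with a slight overlap.

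Lysosomes are acidic compartments in which proteins, glycans, glycosaminoglycans and lipids delivered by endocytosis, phagocytosis or autophagy are broken down. Most soluble lysosomal enzymes are tagged with mannose 6-phosphate and sorted to the compartment by receptors, and some need an activator protein made from a larger precursor. Macrophages, osteoclasts and neutrophils are rich in lysosomes or related granules, while nearly every cell of the joint carries some. Loss of single members causes lysosomal storage disorders, several of which affect cartilage and bone. Many lysosomal genes hold the letters TCACGTG near their start, the core of the element bound by transcription factors of the TFEB and MITF family.

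Library depth ranged from 11567073 to 32867818 reads on listed genes (median 16399898), and 100% of the deposited values were whole multiples of 1 read within 0.01 reads. Groups were compared with limma on log2(CPM + 1) over 13173 genes, a scale that understates changes of low genes, and a gene was called at a Benjamini-Hochberg adjusted p under 0.05. The rule of the study's methods, an unadjusted p under 0.05 with an absolute log2 difference over 0.32, is given beside it. Nothing in the labels says that the mice of a group came from separate litters or runs, so the p-values cover the spread between these libraries. One uninjured library stood apart, WT D0 replicate 4, with 55692 CPM summed over 7 fibroblast marker genes against 11488 to 26807 CPM in the other WT D0 mice.

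Per kilobase of exon, the members spanned a wide range of levels. Psap, the precursor of the saposins that help hydrolases reach sphingolipids, was the most abundant with a mean of 522 CPM per kb over the 16 libraries. Ctsd, the aspartic protease cathepsin D, followed with 446 CPM per kb and Laptm5, a membrane protein of blood cells that directs receptors to lysosomes, with 219 CPM per kb. At the low end were Mcoln1, the lysosomal calcium channel, with 3.36 CPM per kb and Sgsh, a heparan sulfate sulfatase, with 2.62 CPM per kb.

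Psap ranged from 1291 to 1629 CPM over the 16 mice. It was 1308, 1349.9, 1619 and 1379 CPM in WT D0 mice and 1291, 1548, 1581 and 1313 CPM in WT D7 mice. Trem2-/- mice had 1478, 1442, 1629 and 1341 CPM at D0 and 1424, 1474, 1423 and 1327 CPM at D7. The 4 groups overlapped. On the scaled values the D7 minus D0 differences were 0.02 in WT mice (95% confidence interval -0.28 to 0.31, log2) and -0.06 in Trem2-/- mice (-0.35 to 0.24). Without the authors' scaling factor Psap fell by 0.35 in Trem2-/- mice (adjusted p = 0.0446). The summed CPM of the 36 members had medians of 8312 (D0) and 9705 (D7) in WT and of 8806 and 9044 in Trem2-/- mice.

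After injury in WT mice, 19 of the 36 members were higher and 1 was lower at D7 than at D0, and 16 did not pass the test. Of all genes tested, 15.9% were called higher and 12.6% lower in the same comparison. Glb1 (β-galactosidase), Naglu (a heparan sulfate glycosidase), Ctss (the protease cathepsin S) and Npc1 (the lysosomal cholesterol exporter) rose most, by 0.88 to 1.11 on the log2 scale. The median difference was 0.32 over the members and -0.04 over all genes. By the study's rule 18 members were higher and 4 lower, against 19.3% and 18.2% of all genes. For 16 members every WT D7 mouse lay above every WT D0 mouse, as for 12.9% of all genes, and for 0 members did every D7 mouse lie below, as for 9.34% of all genes. The number called fell from 20 to 13 when either WT D0 replicate 2 or WT D0 replicate 3 was left out, and to 10 when the fit held the WT libraries alone, and 12 of the 19 rises were called without each single mouse in turn. The matching counts over all genes are not given for these runs.

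In Trem2-/- mice, 19 members were higher and 6 lower at D7 than at D0, and 11 did not pass. In that genotype 26.0% of all genes were called higher and 27.2% lower. The median difference was 0.35 over the members and -0.04 over all genes, and the members ranged from -1.57 (Laptm5) to 1.38 (Naglu). By the study's rule 20 were higher and 6 lower, against 26.5% and 27.9% of all genes. Every D7 mouse lay above every D0 mouse for 19 members (26.1% of all genes) and below for 6 (26.3% of all genes). The injury comparisons in the 2 genotypes share no mice. The same 18 members rose in both, 94.7% of the risers of each genotype, with Ctss added in WT and Fuca1 in Trem2-/- mice. Neu1 fell in both genotypes, while Cln3, Ctsd, Gla, Laptm5 and Ppt1 passed the test for a fall in Trem2-/- mice and not in WT mice. In 33 of 36 members the sign of the difference was the same in both genotypes, and 10 members were called in neither. Neither the overlap of calls nor the agreement in sign was counted over all genes.

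The direction of the smaller changes rests on the scaling factor that the authors applied. In CPM without that factor, WT mice had a median difference of -0.30 over all genes and 0.04 over the members, and Trem2-/- mice had -0.31 and 0.06. On that scale 9 members were called higher and 5 lower in WT mice (9.41% and 38.5% of all genes), and 10 higher and 8 lower in Trem2-/- mice (16.8% and 44.5%). Under both scalings and in both genotypes 7 members rose, Ctsb, Gaa, Glb1, Naglu, Npc1, Sgsh and Smpd1. The 6 members that fell in Trem2-/- mice fell under both scalings, joined by Psap and Man2b1 without the factor, and on that scale 5 of the 6 (Cln3, Gla, Laptm5, Neu1 and Ppt1) also fell in WT mice. The rises of Ctsa, Lamp1, Lipa, Tpp1, Asah1, Hexa, Gusb, Ids, Cd63 and Mcoln1 in WT mice were not called without the factor.

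**Figure D1:**
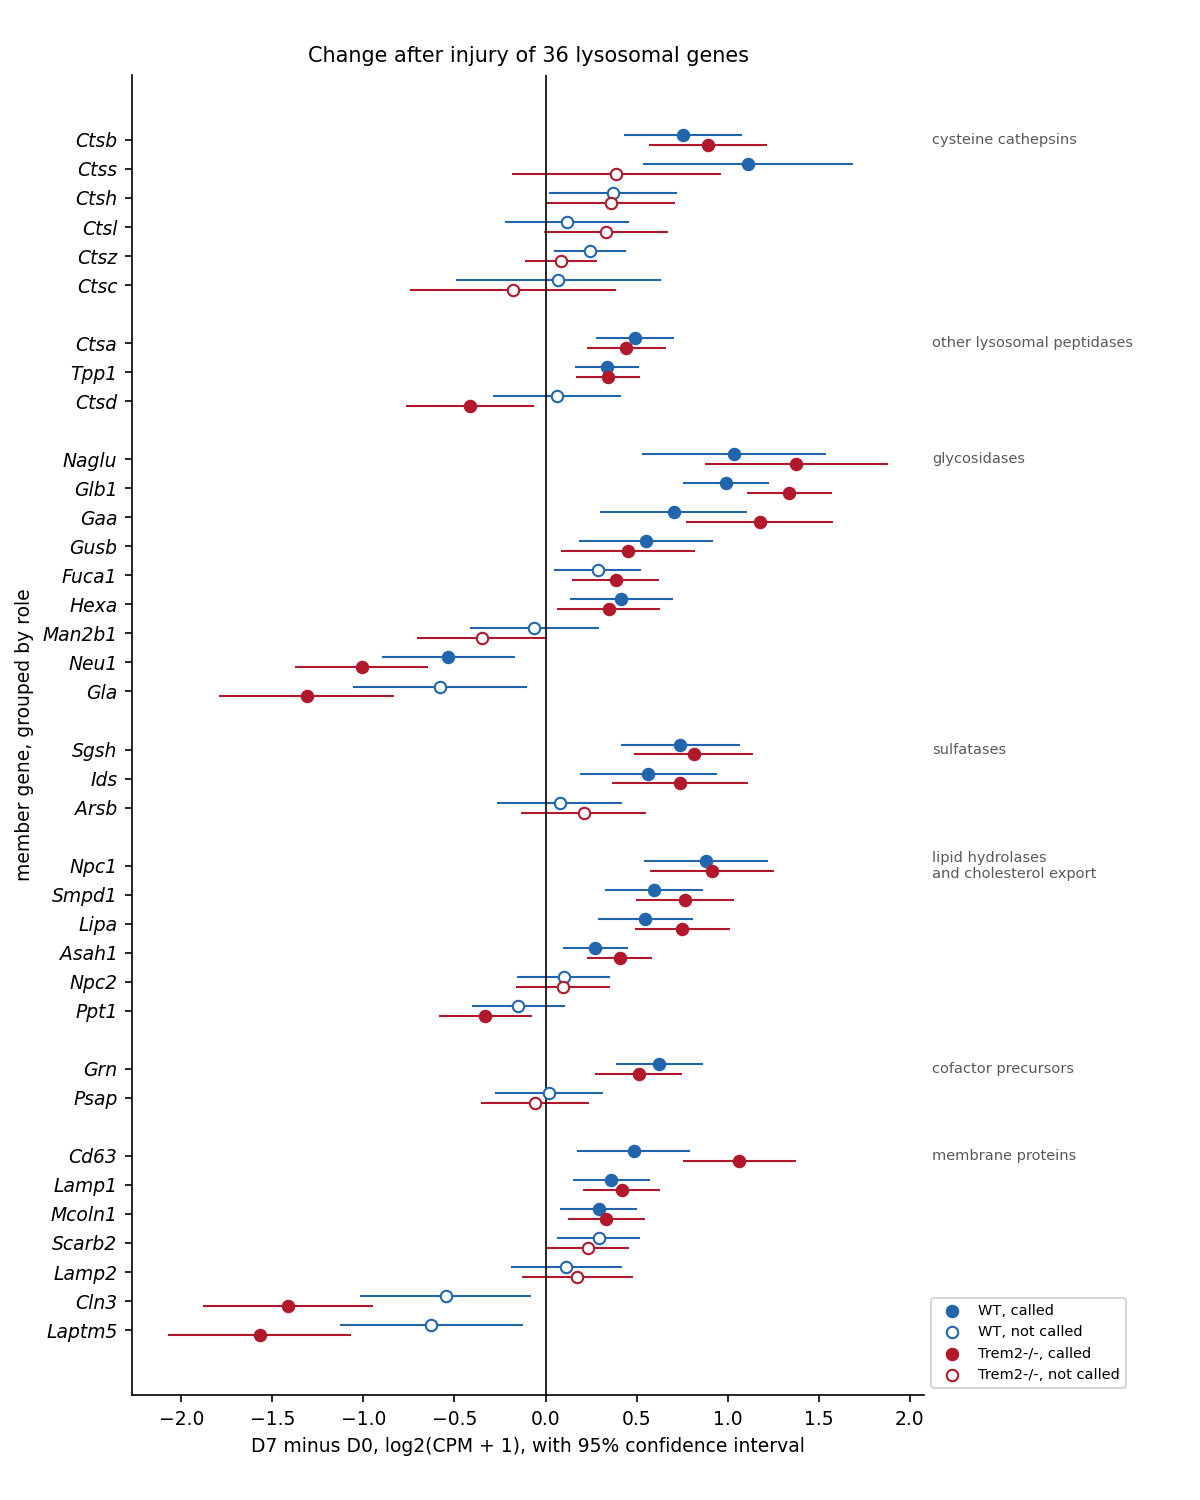
Difference between D7 and D0 in log2(CPM + 1) for each of the 36 members, grouped by role, in WT (blue) and Trem2-/- (red) mice. Points are limma estimates from 4 mice per group, lines are 95% confidence intervals and filled points passed an adjusted p under 0.05. Points to the right dominate, led by Naglu and Glb1, while Laptm5, Cln3, Gla and Neu1 lie to the left in both genotypes. Without the authors' scaling factor the points sit further left, with a member median of 0.04 in WT and 0.06 in Trem2-/- mice, and of the called differences that of Asah1 in WT mice changes sign.

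Among the cysteine cathepsins, Ctsb rose in both genotypes and Ctss in WT mice, and the other 4 were not called in either. Ctsb, a protease with endo- and exopeptidase activity, went from 761 ± 137 CPM (SD, n = 4) at WT D0 to 1277 ± 164 at WT D7, a log2 difference of 0.75 (SE 0.15, limma adjusted p = 0.00351). Its Trem2-/- means went from 726 ± 85.9 to 1341 ± 10.7 CPM, a difference of 0.89 (SE 0.15, adjusted p = 0.000247). The 4 Trem2-/- D7 mice lay within 1331 to 1354 CPM. Of the exon bases of Ctsb 12.8% overlap Fdft1 on the other strand, and the strand setting of the read counting is not stated. Over the 16 libraries Fdft1 had a mean of 23.1 CPM and Ctsb of 1026 CPM.

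Ctss encodes cathepsin S, which trims the invariant chain during antigen presentation. It was 58.4, 125, 159 and 129.8 CPM in WT D0 mice and 270.4, 270.1, 288 and 159 CPM in WT D7 mice, without overlap. Its Trem2-/- values were 155, 109.7, 158 and 97.4 CPM at D0 and 162, 181, 140.4 and 189 CPM at D7, with overlap. The log2 difference was 1.11 (SE 0.27, adjusted p = 0.00885) in WT and 0.39 (SE 0.27, adjusted p = 0.238) in Trem2-/- mice. The gap between these responses did not pass either call rule in limma (interaction -0.72, SE 0.38, adjusted p = 0.646). WT D7 replicate 4 was well below the other WT D7 mice. Ctsc, Ctsh, Ctsl and Ctsz had differences between -0.18 and 0.37 over both genotypes.

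Of the other peptidases, Ctsa, the protective protein that holds β-galactosidase and sialidase together, rose by 0.49 in WT and 0.44 in Trem2-/- mice, and the tripeptidyl peptidase Tpp1 by 0.34 in each. Without the authors' scaling factor neither was called. Of the exon bases of Ctsa 10.5% overlap Pltp on the other strand, a gene with a mean of 106 CPM. Pltp was 0.75 in WT and 0.69 in Trem2-/- mice (not called). Without the strand setting the reads in the overlap cannot be told apart. Ctsd was 967, 1006, 1078 and 974 CPM at WT D0 and 758, 1009.5, 1296 and 1230.2 CPM at WT D7. It was 1278, 1396, 1062 and 1100.3 CPM at Trem2-/- D0 and 831, 872, 943 and 962 CPM at Trem2-/- D7. The WT groups overlapped and the Trem2-/- groups did not, with differences of 0.06 (adjusted p = 0.793) and -0.42 (SE 0.16, adjusted p = 0.0442). This fall was no longer called without any of 9 single mice, with an adjusted p of up to 0.12 (Trem2-/- D0 replicate 2 left out). Of the exon bases of Ctsd 34.4% are shared with Gm49369 on the same strand, which was not analysed here.

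The glycosidases held the largest rises in Trem2-/- mice, of Naglu and Glb1, and 2 of the 6 falls. Naglu, which removes N-acetylglucosamine from heparan sulfate, was 29.1, 13.7, 13.8 and 31.4 CPM in WT D0 mice and 34.2, 51.8, 41.6 and 46.1 CPM in WT D7 mice. The Trem2-/- mice had 16.1, 18.2, 16.0 and 23.9 CPM at D0 and 49.4, 50.7, 52.2 and 44.6 CPM at D7. In each genotype all D7 mice were higher than all D0 mice, with log2 differences of 1.03 (SE 0.24, adjusted p = 0.00645) and 1.38 (SE 0.24, adjusted p = 0.00025). WT D0 replicates 1 and 4 were above the other uninjured mice. Glb1, which cleaves galactose from gangliosides and keratan sulfate, was 19.7, 21.6, 20.4 and 26.3 CPM at WT D0 and 40.8, 49.4, 43.9 and 43.7 CPM at WT D7. It was 21.7, 17.1, 22.0 and 18.0 CPM at Trem2-/- D0 and 52.1, 53.0, 51.8 and 47.4 CPM at Trem2-/- D7. Its means rose 2.02-fold in WT and 2.59-fold in Trem2-/- mice (log2 0.99, SE 0.11, adjusted p = 0.000202, and 1.34, SE 0.11, adjusted p = 7.52e-06).

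Gaa, the glycogen-degrading acid α-glucosidase, was 89.3, 47.7, 65.6 and 98.1 CPM at WT D0 and 116, 131, 98.0 and 132 CPM at WT D7. Its values in Trem2-/- mice were 56.4, 66.4, 52.4 and 74.8 CPM at D0 and 151, 133, 159 and 125 CPM at D7. The WT groups touched, at WT D0 replicate 4 and WT D7 replicate 3, and the Trem2-/- groups were apart. The differences were 0.70 (SE 0.19, adjusted p = 0.0146) and 1.18 (SE 0.19, adjusted p = 0.000158). Gusb (β-glucuronidase) and Hexa (a β-hexosaminidase subunit) rose in both genotypes by 0.35 to 0.55. Their rises were no longer called without single mice, with an adjusted p of up to 0.127 (Hexa, Trem2-/- D0 replicate 2 left out). Fuca1 (α-fucosidase) rose in Trem2-/- mice (0.38, adjusted p = 0.00932) and was 0.29 in WT mice (adjusted p = 0.0658). Man2b1 (α-mannosidase) was -0.06 and -0.35 and not called on this scale.

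Gla and Neu1 went the other way. Gla, the α-galactosidase that clears globotriaosylceramide, was 203, 214, 203 and 200.4 CPM at WT D0 and 82.3, 116, 217 and 169 CPM at WT D7. It was 242, 294, 290.4 and 217 CPM at Trem2-/- D0 and 81.2, 104, 112 and 121 CPM at Trem2-/- D7. The injured Trem2-/- mice were all below the uninjured ones, with means 2.49-fold lower (log2 -1.31, SE 0.23, adjusted p = 0.000245). In WT mice 1 of the 4 injured animals lay above all uninjured animals (log2 -0.58, SE 0.23, adjusted p = 0.0638). Neu1, the lysosomal sialidase, was 57.8, 102, 90.4 and 70.2 CPM at WT D0 and 45.9, 52.0, 61.8 and 56.3 CPM at WT D7. In Trem2-/- mice it was 94.7, 80.6, 119 and 72.8 CPM at D0 and 43.4, 41.8, 49.2 and 43.0 CPM at D7. It fell in both genotypes, by 0.53 (SE 0.17, adjusted p = 0.0314) and by 1.01 (SE 0.17, adjusted p = 0.00023) on the log2 scale. The WT groups overlapped, and the WT call was lost without any of 5 single mice (adjusted p up to 0.103, WT D0 replicate 2 left out).

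**Figure D2:**
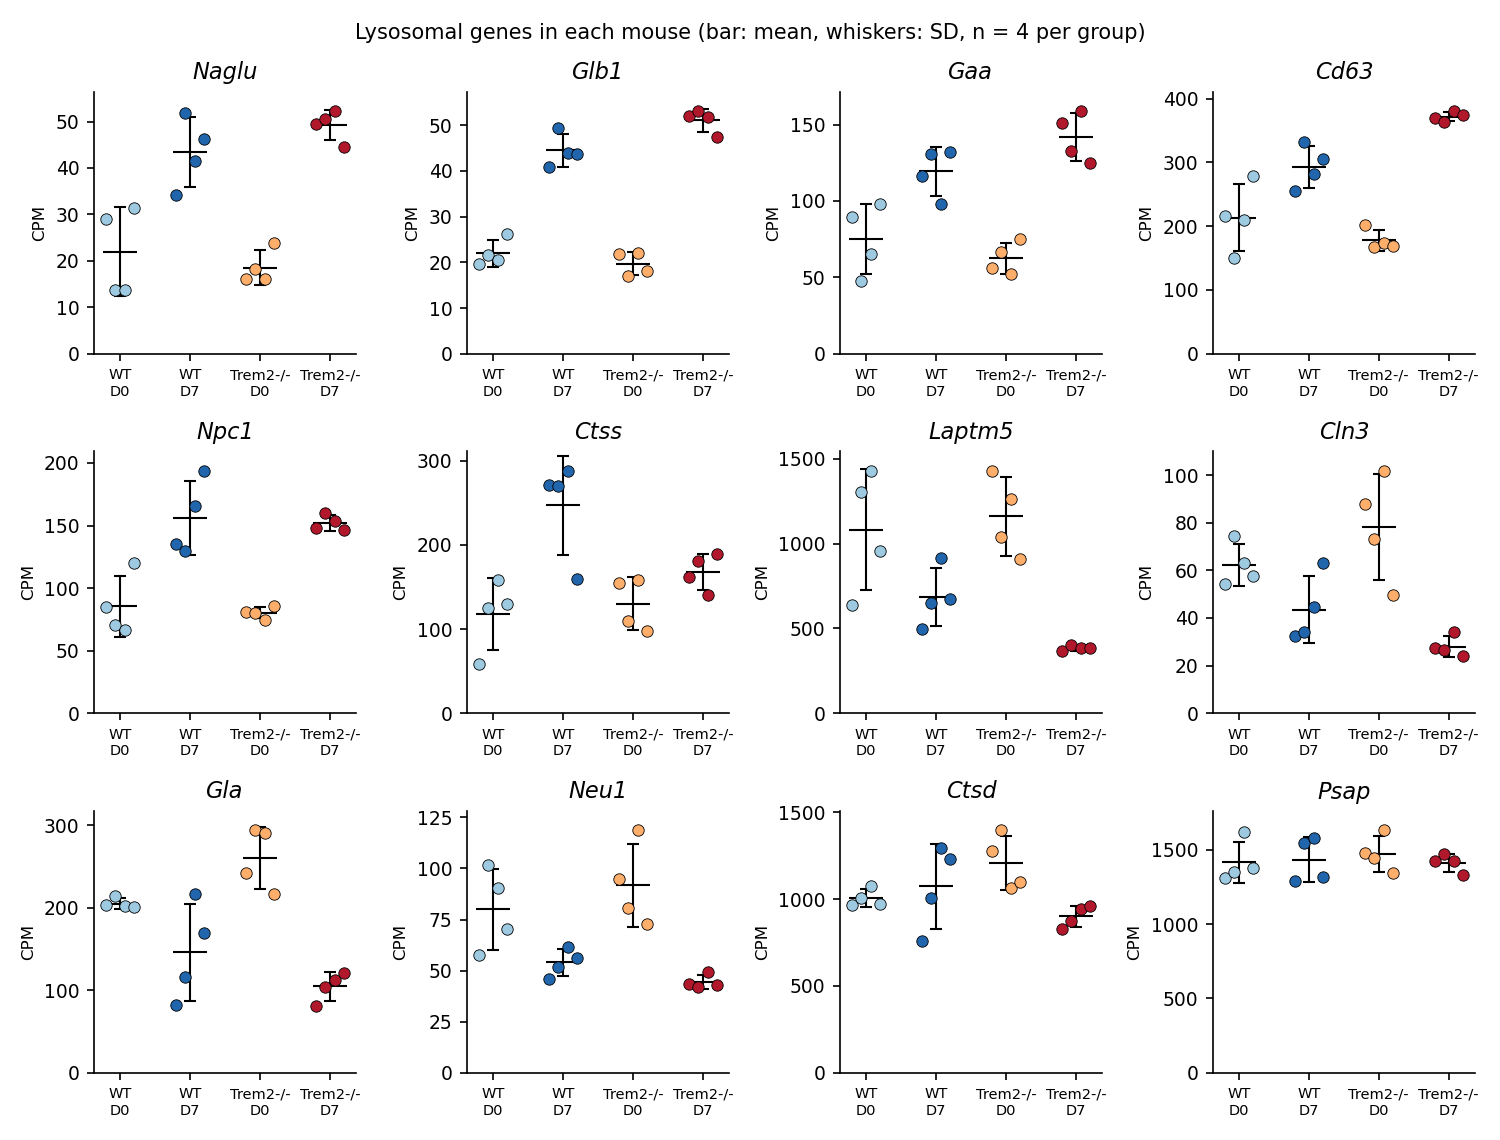
CPM of 12 members in each mouse, with the WT groups left of the Trem2-/- groups and D0 left of D7. Points are mice, bars are means and whiskers are SD (n = 4). Naglu, Glb1, Gaa, Cd63 and Npc1 have higher means and Laptm5, Cln3, Gla and Neu1 lower means at D7 in both genotypes, with no overlap between D0 and D7 in Trem2-/- mice for any of the 9, and Psap stays between 1291 and 1629 CPM in all 16 mice.

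Of the sulfatases, Sgsh and Ids rose in both genotypes, and Arsb, which acts on dermatan and chondroitin sulfate, was not called. Sgsh, which acts on heparan sulfate, was the lowest member per kilobase and rose by 0.74 in WT (SE 0.15, adjusted p = 0.00395) and by 0.81 in Trem2-/- mice (SE 0.15, adjusted p = 0.000507). Of its exon bases 21.6% overlap Card14 on the other strand. Ids, which acts on heparan and dermatan sulfate, rose by 0.56 and 0.74, and its WT call was lost without any of 3 single mice (adjusted p up to 0.0901, WT D0 replicate 2 left out).

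The genes for lipid handling rose in 4 of 6 cases in each genotype. Npc1, the membrane protein that exports cholesterol, was 85.2, 70.7, 66.3 and 119.8 CPM at WT D0 and 135, 129.6, 165 and 194 CPM at WT D7. It was 80.7, 80.2, 74.9 and 85.5 CPM at Trem2-/- D0 and 148, 160.2, 154 and 146 CPM at Trem2-/- D7. No injured mouse overlapped the uninjured mice of its genotype, and the differences were 0.88 (SE 0.16, adjusted p = 0.00194) and 0.91 (SE 0.16, adjusted p = 0.000292). Npc2, the soluble partner that hands cholesterol to Npc1, was 0.10 in each genotype and not called (WT -0.16 to 0.36, Trem2-/- -0.16 to 0.35, 95% confidence intervals). Smpd1 (acid sphingomyelinase) rose by 0.59 and 0.77, Lipa (the lipase for cholesteryl esters) by 0.55 and 0.75, and Asah1 (acid ceramidase) by 0.27 and 0.41 in WT and Trem2-/- mice. Asah1 in WT mice was not called without any of 4 single mice (adjusted p up to 0.0861, WT D0 replicate 2 left out) and had the opposite sign, -0.0073, without the authors' scaling factor. Ppt1, which removes palmitate from proteins, fell in Trem2-/- mice (-0.33, adjusted p = 0.0294) and was -0.15 in WT mice (adjusted p = 0.352). The fall was no longer called without any of 6 single mice (adjusted p up to 0.079, Trem2-/- D0 replicate 2 left out). Ppt1 shares 3.51% of its exon bases with Cap1 on the other strand, a gene with a mean of 465 CPM that was -0.35 in WT and fell by 0.83 in Trem2-/- mice, and without the strand setting their reads in the overlap cannot be told apart.

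The cofactor precursors differed from each other. Grn, the precursor of the granulins, rose by 0.62 in WT (SE 0.11, adjusted p = 0.00181) and 0.51 in Trem2-/- mice (SE 0.11, adjusted p = 0.0015), while Psap was not called in either on the scaled values. The rise of Grn in Trem2-/- mice was not called without the scaling factor.

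The membrane proteins split most widely. Cd63, a tetraspanin of late endosomes and lysosomes, was 216, 151, 209.7 and 278 CPM at WT D0 and 255, 332, 282 and 305 CPM at WT D7. It was 201, 167, 174 and 169 CPM at Trem2-/- D0 and 369, 364, 380.0 and 374 CPM at Trem2-/- D7. The WT groups overlapped through WT D0 replicate 4, while the Trem2-/- groups lay far apart with means 2.09-fold higher. The log2 differences were 0.48 (SE 0.15, adjusted p = 0.0244) and 1.06 (SE 0.15, adjusted p = 5.11e-05), and the WT call was lost without any of 4 single mice (adjusted p up to 0.0736, WT D0 replicate 2 left out). Lamp1, an abundant glycoprotein of the limiting membrane, rose by 0.36 and 0.42, and Mcoln1 by 0.29 and 0.33. In WT mice Lamp1 was not called without WT D0 replicate 2 (adjusted p = 0.054) and Mcoln1 without any of 8 mice (up to 0.123, WT D0 replicate 3 left out). Lamp2, the sister glycoprotein of Lamp1, and Scarb2, the carrier of glucocerebrosidase, were not called.

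Laptm5 was 640.1, 1302, 1429 and 958 CPM at WT D0 and 499, 649, 915 and 673 CPM at WT D7. The Trem2-/- mice had 1428, 1038, 1264 and 910.1 CPM at D0 and 364, 405, 385 and 384 CPM at D7. The WT groups overlapped, and the injured Trem2-/- mice lay below every uninjured mouse, with means 3.02-fold lower than at Trem2-/- D0. The differences were -0.63 (SE 0.24, adjusted p = 0.0574) in WT and -1.57 (SE 0.24, adjusted p = 9.15e-05) in Trem2-/- mice. Cln3, a membrane protein lost in juvenile neuronal ceroid lipofuscinosis, was 54.3, 74.3, 62.9 and 57.5 CPM at WT D0 and 32.6, 33.9, 44.4 and 62.9 CPM at WT D7. It was 87.9, 73.3, 102 and 49.6 CPM at Trem2-/- D0 and 27.3, 26.4, 34.0 and 24.0 CPM at Trem2-/- D7. Its differences were -0.55 (SE 0.22, adjusted p = 0.0727) and -1.41 (SE 0.22, adjusted p = 0.00012). Cln3 shares 7.65% of its exon bases with Apobr on the other strand, which was -0.74 in WT and fell by 1.82 in Trem2-/- mice, and without the strand setting the reads of the pair cannot be told apart.

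Promoter letters were read next to these directions. RefSeq sequences on GRCm38.p6, from 250 bases before to 50 after each gene start, were found for 32 of the 36 members, and Ctsb, Ctsh, Asah1 and Npc1 had no entry. The letters TCACGTG, or CACGTGA on the other strand, both of which contain the E-box CACGTG, occurred in 10 of the 32 members (31.2%) and in 684 of 10515 listed genes with a promoter entry (6.5%). CACGTG alone occurred in 11 members (34.4%) and in 1171 genes (11.1%). Of the members higher in both genotypes 7 of 15 with a promoter held TCACGTG, of those higher in 1 genotype 0 of 2, of those lower in Trem2-/- mice 3 of 6, and of those called in neither 0 of 9. The letters thus stood on both sides of the injury response, in Naglu, Glb1 and Gaa as in Gla, Cln3 and Ctsd. They are a description of sequence and not of binding.

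Windows around a match are shown for the 7 members with a match that rose in both genotypes. They are also shown for the 3 with a match among the 6 that fell in Trem2-/- mice. All are read 5′ to 3′ on the gene's strand with the matched letters in capitals. Lamp1 held 4 such windows, and Ctsa, Mcoln1, Cln3, Ctsd and Gla held 2 each, of which 1 is given.
Naglu, chr11:101070010-101070036, plus strand: aaccttcaggTCACGTGgcccgaggtc
Glb1, chr9:114401019-114401045, plus strand: tgcttctgagTCACGTGgcctacagag
Gaa, chr11:119267812-119267838, plus strand: ttctgtgcgaTCACGTGtttgactctg
Sgsh, chr11:119355523-119355549, minus strand: gcctgccgtgCACGTGAccgtggggag
Lamp1, chr8:13159089-13159115, plus strand: gggcaagataTCACGTGgtccagcgcc
Mcoln1, chr8:3500463-3500490, plus strand: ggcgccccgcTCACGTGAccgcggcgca
Ctsa, chr2:164833750-164833777, plus strand: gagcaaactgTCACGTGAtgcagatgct
Gla, chrX:134601216-134601243, minus strand: aagcgattgaTCACGTGAgcatctacgt
Cln3, chr7:126583341-126583368, minus strand: acgggtactgTCACGTGAcccccaacct
Ctsd, chr7:142387909-142387936, minus strand: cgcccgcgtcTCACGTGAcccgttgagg
The Glb1 match lay 49 bases before the gene start and that of Naglu 74 bases before it, while the Gla matches lay 195 and 228 bases before it, all counted from the RefSeq start. In GENCODE M21 on the same build, Glb1 spans chr9:114401076-114474898, Naglu chr11:101070012-101077672, Gla chrX:134588149-134601125 and Cln3 chr7:126571207-126585817. The windows of Glb1, Gla, Gaa and Lamp1 lie before the annotated gene, those of Naglu and Sgsh across its first base, and those of Cln3, Ctsd, Ctsa and Mcoln1 within it. The whole 250 bases before the Glb1 start, the member with the smallest adjusted p in both genotypes, hold the letters once.
Glb1, chr9:114400828-114401077, plus strand: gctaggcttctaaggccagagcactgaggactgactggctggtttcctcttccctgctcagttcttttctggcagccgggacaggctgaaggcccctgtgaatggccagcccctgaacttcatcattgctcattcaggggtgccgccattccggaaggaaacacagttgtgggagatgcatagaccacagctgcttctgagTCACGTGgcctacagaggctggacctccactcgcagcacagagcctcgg

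The makeup of the summed member level differed between D0 and D7. Psap, Ctsd, Ctsb and Laptm5 together made up a median of 51.2% of the member sum at WT D0, 46.8% at WT D7, 52.2% at Trem2-/- D0 and 44.5% at Trem2-/- D7. The Laptm5 share went from 13.4% to 6.82% in WT and from 13.0% to 4.22% in Trem2-/- mice, and the Ctsb share from 9.15% to 13.2% and from 8.63% to 14.8%. Shares within a library do not depend on the scaling factor. The ratio of Ctsb to Laptm5, a pair picked after their values were seen, was 0.461 to 1.26 at WT D0 (median 0.733) and 1.51 to 2.19 at WT D7 (median 1.98). In Trem2-/- mice it was 0.484 to 0.814 at D0 (median 0.640) and 3.32 to 3.72 at D7 (median 3.46). As a share of all reads, the member sum had group means of 0.924% at WT D0, 0.860% at WT D7, 0.966% at Trem2-/- D0 and 0.818% at Trem2-/- D7, which is lower at D7, whereas the scaled sums had higher medians at D7. The shares at D0 and D7 overlapped in WT mice and did not in Trem2-/- mice. The scaled sums at D0 and D7 overlapped in both genotypes.

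**Figure D3:**
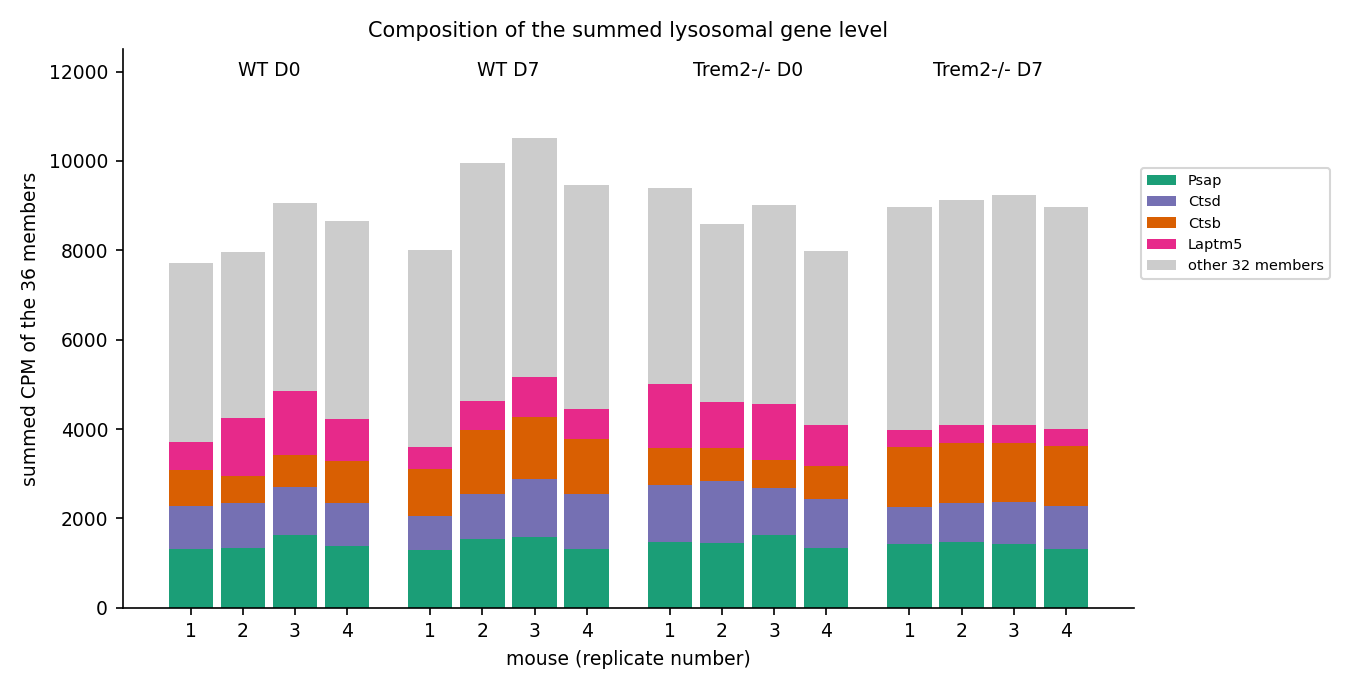
Summed CPM of the 36 members in each of the 16 mice, stacked by Psap, Ctsd, Ctsb, Laptm5 and the other 32 members. The Laptm5 layer is thinnest in the 4 Trem2-/- D7 mice, at 364 to 405 CPM, and the Ctsb layer is thicker in every injured mouse than in any uninjured mouse of its genotype. On the CPM scale the summed height had medians of 8312, 9705, 8806 and 9044 from left to right, while as a share of all reads the group means were lower at D7. The summed heights at D0 and D7 overlapped in both genotypes.

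Cell type markers moved in the same comparisons, counted here at an adjusted p under 0.05 (limma). The summed CPM of 5 pan-leukocyte genes (Ptprc, Coro1a, Cd53, Rac2 and Lcp1, without Laptm5) had medians of 3215 (D0) and 1606 (D7) in WT and of 4155 and 1020 in Trem2-/- mice. WT D0 and WT D7 overlapped in this sum, at 2178 to 4121 and 1088 to 2572, and the Trem2-/- groups did not, at 2625 to 4701 and 879 to 1204. WT D0 replicates 1 and 4, the mice with the lowest Laptm5 among uninjured WT mice, also had the lowest leukocyte sums of that group. Of 10 neutrophil markers 10 fell in each genotype (median -1.54 in WT and -2.36 in Trem2-/- mice). Of 7 B cell markers 6 fell in each (median -1.35 and -1.99), and the other, Ebf1, was 0.32 in WT mice and rose by 0.66 in Trem2-/- mice. Of the T and NK cell markers 6 of 7 were tested, and 4 fell in WT and 6 in Trem2-/- mice (median -0.71 and -1.08).

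Macrophage markers rose in 8 of 10 cases in WT mice and in 6 of 10 in Trem2-/- mice (median 1.66 and 1.14). Lower at D7, without being called, were 1 marker in WT (-0.30) and 3 in Trem2-/- mice (down to -0.71). Cd68, a macrophage marker that is not on this list, was called lower at D7 in Trem2-/- mice. The summed CPM of the 10 macrophage markers was 232 to 398 at WT D0, 524 to 763 at WT D7, 315 to 352 at Trem2-/- D0 and 473 to 532 at Trem2-/- D7. Fibroblast markers rose in 5 and 6 of 7 cases (median 1.69 and 3.25) and chondrocyte markers in 6 of 6 in each genotype (median 3.93 and 5.26). The chondrocyte sum was at least 667 CPM in every mouse, so markers of joint tissue were present throughout. Osteoclast markers rose in 3 and 5 of the 6 tested of 7, and 1 fell in Trem2-/- mice (median 0.43 and 0.91), endothelial markers in 0 of 5 (median 0.08 and 0.17). Muscle markers fell in 1 and 6 of 6 (median -0.90 and -1.45), and erythroid markers in 4 of the 4 tested of 6 in each genotype (median -1.30 and -1.81). The part of these shifts in the member changes was not tested, and in bulk libraries fewer cells of a type and less RNA per cell cannot be told apart.

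**Figure D4:**
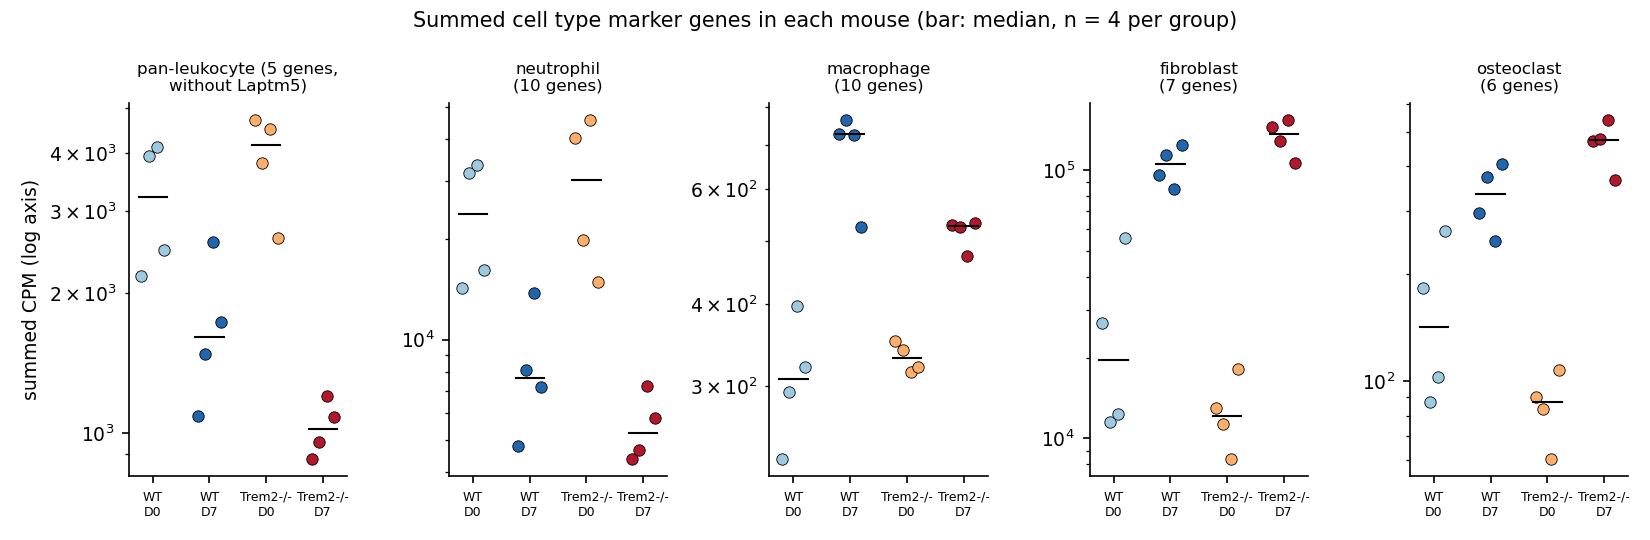
Summed CPM of marker genes for leukocytes, neutrophils, macrophages, fibroblasts and osteoclasts in each mouse, on log axes that differ between panels. Points are mice and bars are medians (n = 4). The leukocyte and neutrophil sums were lower and the macrophage, fibroblast and osteoclast sums higher at D7 by median in both genotypes, and the 5-gene leukocyte sum was 879 to 1204 CPM in Trem2-/- D7 mice against 1088 to 2572 CPM in WT D7 mice.

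Whether the loss of Trem2 changed the lysosomal genes of the injured joint was addressed by comparing the genotypes at D7. No member passed an adjusted p under 0.05 (limma, edgeR or DESeq2), and of all genes 0% did in limma, while DESeq2 called 39. At an unadjusted p under 0.05 limma had 3 members, and the same 3 passed the study's rule, against 5.72% of all genes (1.18% higher and 4.53% lower). Laptm5 was 1.78-fold lower in Trem2-/- D7 than in WT D7 mice by the means (log2 -0.80, 95% confidence interval -1.30 to -0.29, limma adjusted p = 0.451), and each Trem2-/- mouse lay below each WT mouse. Cln3 was -0.58 (-1.05 to -0.11, adjusted p = 0.609) with overlap, and the overlapping Apobr was -0.77 in the same comparison. Cd63 was 0.35 higher (0.03 to 0.66, adjusted p = 0.627), with every Trem2-/- mouse above every WT mouse. Groups that did not overlap were found for 3.55% of all genes with higher and 4.78% with lower values in Trem2-/- mice.

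The median genotype difference at D7 was 0.01 over the members and 0.01 over all genes. With edgeR or DESeq2 on the recovered reads 5 members passed the study's rule, adding Ctss (-0.53 in limma, 95% confidence interval -1.10 to 0.05) and Gla (-0.40, -0.88 to 0.08). By the same rule edgeR called 891 and DESeq2 962 of the 13173 genes, against 753 in limma. Leaving out Trem2-/- D7 replicate 4 left only Laptm5 of the members in limma. Cd63 did not pass the rule without any of 5 single mice (unadjusted p up to 0.0932, WT D7 replicate 1 left out) and Cln3 without either of 2 (unadjusted p up to 0.0805, WT D7 replicate 4 left out). Of the cell type markers, all 6 pan-leukocyte genes, Laptm5 among them, were lower in Trem2-/- mice by the study's rule (median -0.69). The same held for 5 of 7 B cell markers (median -0.89) and 3 of 10 macrophage markers (median -0.37). None of 10 neutrophil markers passed it, although all had lower means (median -0.48). The part of these markers in the Laptm5 difference was not tested.

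In uninjured mice, no member differed between the genotypes by adjusted p with limma, edgeR or DESeq2. Of all 13173 genes, 0 did in limma, 0 in edgeR and 1 in DESeq2. In limma 0 of 36 members had an unadjusted p under 0.05. The study's rule called 0 members, against 2.15% of all genes. Only Gla had groups that did not overlap (0.979% of all genes), with every Trem2-/- D0 mouse above every WT D0 mouse (0.33, 95% confidence interval -0.14 to 0.81). Without WT D0 replicate 2 the rule called 3 members (Cd63, Gaa and Ids), all lower in Trem2-/- mice, and without Trem2-/- D0 replicate 4 it called 1 (Cln3), higher. With only these libraries in the fit it called 1 member, Gla. Among the markers at D0, 2 of 7 fibroblast markers (median -1.06), 3 of 6 chondrocyte markers (median -1.77) and 2 of the 6 tested osteoclast markers (median -0.42) were lower in Trem2-/- mice by the study's rule, and WT D0 replicate 4 had the highest fibroblast and chondrocyte sums of its group.

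**Figure D5:**
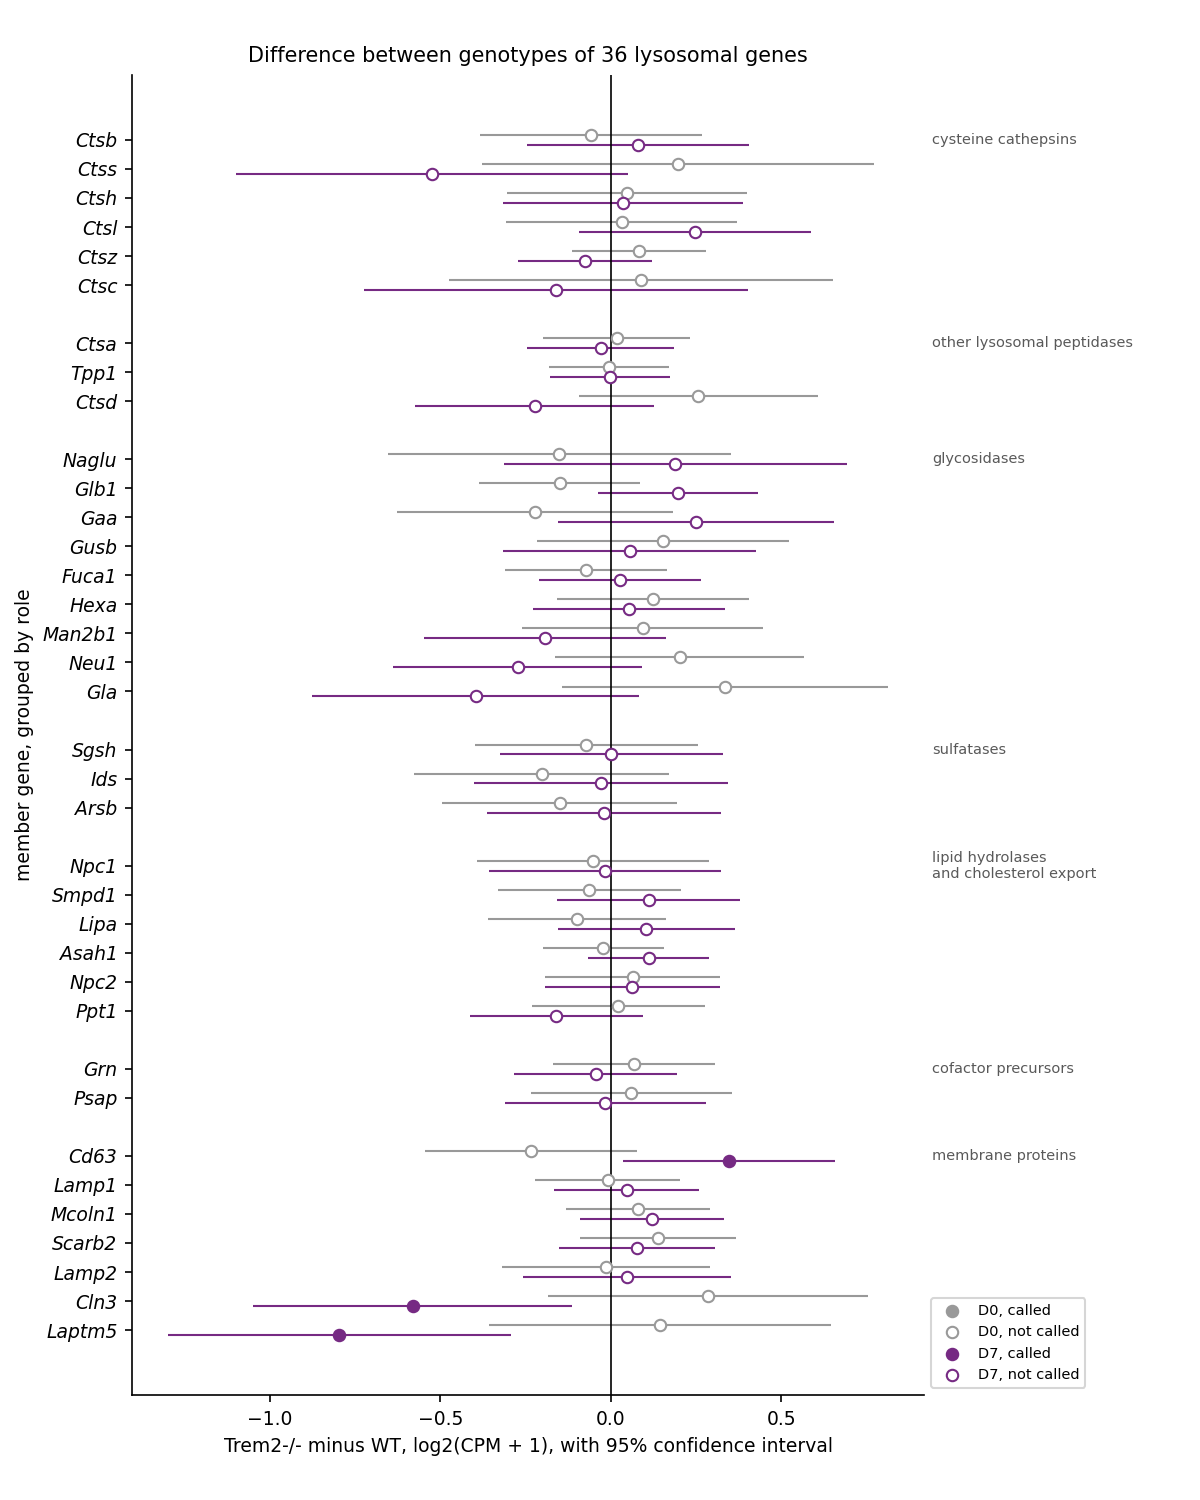
Difference between Trem2-/- and WT mice in log2(CPM + 1) for the 36 members at D0 (grey) and D7 (purple). Points are limma estimates from 4 mice per group, lines are 95% confidence intervals and filled points passed the study's rule of an unadjusted p under 0.05 and an absolute log2 difference over 0.32. Laptm5, Cln3 and Cd63 at D7 are the 3 filled points, none of which passed an adjusted p under 0.05, and most intervals contain 0.

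The interaction term, the injury response in Trem2-/- minus that in WT mice, was tested on the same libraries as the comparisons above and shares their mice. With an adjusted p under 0.05 it called 0 members in limma, edgeR and DESeq2. Of all 13173 genes it called 0 in limma, 0 in edgeR and 1 in DESeq2. In limma 5 members had an unadjusted p under 0.05. The same 5 passed the study's rule, 2 higher and 3 lower, against 7.79% of all genes (2.77% higher and 5.02% lower). Laptm5 (-0.94, SE 0.33, 95% confidence interval -1.65 to -0.23), Cln3 (-0.87, -1.53 to -0.20) and Gla (-0.73, -1.41 to -0.05) had more negative responses in Trem2-/- mice. Cd63 (0.58, 0.14 to 1.02) and Glb1 (0.35, 0.02 to 0.68) had more positive ones. Their adjusted p in limma was 0.579 to 0.607. The count was 8 without WT D0 replicate 2 and 3 without any of WT D7 replicate 3, WT D0 replicate 4, Trem2-/- D7 replicate 1, Trem2-/- D7 replicate 2 or Trem2-/- D0 replicate 2. Gla and Glb1 were each lost without 9 of the 16 mice. In the same interaction all 6 pan-leukocyte genes, Laptm5 among them, were lower by the study's rule (median -0.98). So were 2 of 10 macrophage markers (median -0.23). Of the 6 tested osteoclast markers 4 were higher (median 0.69), and of 7 fibroblast markers 1 was higher (median 1.42). No neutrophil or B cell marker passed the rule (medians -0.78 and -0.74), nor did any of the 6 chondrocyte markers, all with a positive term. Their part in the member differences was not tested.

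Lysosome genes outside the 36 members were counted from lists by role, 78 listed genes in all. Their counts are to be read against the 15.9% of all genes called higher and 12.6% called lower in WT mice, and the 26.0% and 27.2% in Trem2-/- mice. Of 25 other hydrolases, 11 rose and 1 fell in WT mice, and 13 rose and 3 fell in Trem2-/- mice. Lgmn, the asparaginyl protease legumain, rose by 1.37 and 1.63, and Ctsk, the collagen-degrading cathepsin K that is also on the osteoclast list, by 1.44 and 2.78. Of 16 other membrane proteins 6 rose in WT mice, and 5 rose and 3 fell in Trem2-/- mice, the latter near the share of all genes in either direction. Laptm4b, a relative of Laptm5, rose by 0.78 and 1.53, opposite in sign to Laptm5. Cd68, the lysosomal glycoprotein used as a macrophage marker, was 0.23 in WT (adjusted p = 0.151) and fell by 0.42 in Trem2-/- mice. It is not on the list of macrophage markers counted above.

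The V-ATPase is the proton pump that acidifies lysosomes. Of its 19 listed genes 2 rose and 1 fell in WT mice, and 2 rose and 10 fell in Trem2-/- mice, with medians of -0.10 and -0.34. Atp6v0d2, also on the osteoclast list, rose by 0.62 and 1.49, and Atp6v1e1 fell by 0.81 in Trem2-/- mice. Of 9 genes for mannose 6-phosphate tagging and sorting 3 rose in WT mice, and 3 rose and 3 fell in Trem2-/- mice. Igf2r, the large mannose 6-phosphate receptor, rose by 1.29 and 1.34, and the small receptor M6pr was -0.30 in WT (adjusted p = 0.0948) and fell by 0.51 in Trem2-/- mice.

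Of the 4 genes of the TFEB and MITF family, Mitf rose in both genotypes, by 0.69 and 0.57. Tfeb, Tfe3 and Tfec fell in Trem2-/- mice, by 0.78, 0.36 and 1.08, and were -0.34, -0.08 and -0.40 in WT mice (not called). Of the inhibitors of cysteine cathepsins, 5 of 8 cystatins and stefins were tested. Cst7, cystatin F of immune cells, fell by 1.47 and 2.19, and in Trem2-/- mice Cst6 rose by 0.65 and Stfa3 fell by 0.87. These counts are on the scaled values, where the median of all genes was -0.04 in each genotype. No gene of these lists differed between the genotypes at D7 by adjusted p in limma.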

How the data were processed

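Bulk RNA-seq was measured in 16 libraries of mouse knee joint cells, 4 mice in each of 4 groups taken from the sample labels. Per the study's methods and the submitters' processing notes, the authors aligned reads with STAR to mm10 (GRCm38), counted them per gene with featureCounts and normalized with edgeR's trimmed mean of M values (TMM), and the versions and the strand setting are not given in the sources used here. The deposited values are a normalized signal, CPM on a TMM-scaled library size as the authors made it, for 13734 entries, of which Fcgr1, listed 2 times, was counted once. The values were whole multiples of 1 read in each library (100% within 0.01 reads), so reads and depth (11567073 to 32867818, with a floor of 3 reads worth 0.101 to 0.250 CPM) were recovered; floors and shares cover counting error only. Replicates differed by more than sampling noise (chi-square per degree of freedom at least 10.4).

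The 13173 genes that reached 1 CPM in 4 or more libraries were fitted with limma 3.58.1 (lmFit, eBayes with trend, R 4.3.3) on log2(CPM + 1), with all 16 libraries and 1 coefficient per group, since the study's methods use limma. Contrasts were D7 against D0 in each genotype, Trem2-/- against WT at each time, and their interaction. Calls were Benjamini-Hochberg adjusted p under 0.05 over all genes, or the study's rule (p under 0.05 and an absolute log2 difference over 0.32). As an added alternative the recovered reads were tested with edgeR 4.0.16, which called 3655 genes in WT and 7037 in Trem2-/- mice after injury; voom, DESeq2 1.42.0, other scalings, filters and pseudocounts and each mouse left out were also run. The members and lists were chosen with earlier results of these data known.

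Values in every mouse were given for the members called by adjusted p with the 4 largest rises and 4 largest falls per injury comparison, for members passing the study's rule between genotypes or in the interaction (up to 6 each), and for the 3 highest per kilobase of merged exons (GENCODE M21, 13428 symbols matched). Same-numbered mice were not treated as pairs. The correlation of their deviations ranged from -0.51 to 0.41, which does not settle whether they were pairs. Promoters came from RefSeq on GRCm38.p6.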

Additional observations from a re-analysis of the deposited data

Results flagged for a closer look

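Among 144 sets of 4 values, 1 for each member and group, 6 held a mouse whose gap to the nearest of the others, divided by the whole range, passed Dixon's 95% critical value for groups of 4, and chance alone gives about 7.2. Ctss in WT D7 replicate 4 (159 CPM against 270.1 to 288 in the other mice, ratio 0.862) touches a result given above. The others were Ctsl in WT D7 replicate 1 (264 against 324 to 335, 0.847), Ctsz in the same mouse (193 against 231 to 235, 0.895), Gla in WT D0 replicate 2 (214 against 200.4 to 203, 0.832), Ppt1 in WT D0 replicate 3 (131 against 108 to 111, 0.837) and Scarb2 in Trem2-/- D7 replicate 4 (101 against 93.3 to 94.5, 0.852).

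The injury responses of 5 members differed between genotypes at an unadjusted p under 0.05 of the interaction term in limma, and none at an adjusted p under 0.05. The same 5 passed the study's rule, against 7.79% of all genes. At an adjusted p under 0.05 limma called 0% of all genes. The response in Trem2-/- minus that in WT mice was 0.348 for Glb1, -0.731 for Gla, 0.58 for Cd63, -0.867 for Cln3 and -0.942 for Laptm5 on the log2 scale.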

How the results depend on the processing

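After injury 20 members were called in WT and 25 in Trem2-/- mice. The WT count was 10 when the fit held the WT libraries alone, and leaving out 1 mouse at a time gave 13 to 21 in WT and 21 to 26 in Trem2-/- mice. Other tools and scalings gave 21 (voom), 21 (edgeR), 24 (DESeq2) and 22 (quantile normalization) in WT, and 25, 23, 27 and 24 in Trem2-/- mice. Over all genes 3752 (limma), 3857 (voom), 3655 (edgeR) and 4488 (DESeq2) were called in WT mice. The same tools called 7009, 6961, 7037 and 7421 in Trem2-/- mice. All-gene counts are not given for quantile normalization, the fit on WT libraries alone or the fits without single mice. Between genotypes and for the interaction no member passed an adjusted p under 0.05 in any alternative run. By the study's rule the count at D7 was 3, and 5 with edgeR and 5 with DESeq2 (1 to 4 without single mice), that at D0 was 0, and 1 with only the groups compared (0 to 3 without single mice), and that of the interaction was 5 (3 to 8 without single mice). At D7 that rule called 753 of all genes in limma, 891 in edgeR and 962 in DESeq2. For the interaction, edgeR, DESeq2, eBayes without trend and quantile normalization each added 1 member. A pseudocount of 5 lost 1. The replicate block and CPM without the TMM factors each added 1 and lost 1. Over all genes the rule called 1026 for the interaction in limma, 1226 in edgeR and 1350 in DESeq2. The interaction could not be fitted with only the groups compared. With the replicate number as a replicate block the counts were 20 in WT and 24 in Trem2-/- mice at an adjusted p under 0.05. Of 24 same-numbered pairs 11 had a correlation over 0.1. Between D0 and D7 the pairs had 0.046, 0.20, 0.41 and 0.31 in WT mice. In Trem2-/- mice they had -0.20, -0.12, 0.11 and 0.015. Differently numbered mice were not compared, so this check cannot tell whether the numbers pair the mice. For CPM without the TMM factors, a setting chosen after seeing the data, Asah1 in WT mice was -0.0073 on the log2 scale, opposite in sign; the cause was not tested beyond the change of scaling itself. No other called difference of a single member changed sign in the alternatives run. The lowest member value was 92 reads, so depth limited none of the members to near its floor of 3 reads.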

Other observations

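The spread between mice of the members, as the coefficient of variation of CPM within a group, had a median of 13.2% at WT D0 and 13.1% at WT D7. In Trem2-/- mice the median was 12.9% at D0 and 5.85% at D7, the lowest of the 4 groups, with single members from 0.796% to 16.4%. These values were not tested. The coefficient was not computed over all genes, so whether the low spread is particular to the members is not known.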
